A study of Gallus gallus with 88 samples.

Results

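Hind muscle (*M. gastrocnemius*, the calf muscle) of broiler embryos was compared at embryonic day (ED) 10 between warm incubation and control incubation. The 16 arrays were chosen by their sample titles from 88 in the series, and each held the RNA of 1 embryo. The 8 H10 embryos were incubated at 38.8 °C during ED7–10 and the 8 C10 embryos at 37.8 °C throughout. Eggs of a commercial broiler line were used, and all groups had the same 37.8 °C outside the treatment interval. By the methods, the warm groups also had a higher relative humidity during treatment, so temperature and humidity cannot be told apart. Other groups of 8 embryos serve only for comparison. L10 was kept at 36.8 °C during ED7–10 and sampled at ED10, while H13, C13 and L13 were kept at 38.8, 37.8 or 36.8 °C during ED10–13 and sampled at ED13. At day 35 after hatch (D35), 8 H10 chickens and 8 controls were available. All values are log2 signals of probe sets, the small groups of array probes that together measure 1 transcript, and every difference is H10 minus C10 on the log2 scale unless another is named.

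Hind limb muscle at this age holds dividing myoblasts, the cells that fuse into muscle fibres. A sample of it can also hold connective tissue, cartilage and skin of the growing leg. A bird embryo has little capacity to regulate its own body temperature, so its tissues follow the temperature of the egg. Warmer incubation is known to hasten embryonic development. Hedgehog proteins, which act through the GLI transcription factors, and sulphated glycosaminoglycans, which hold growth factors in the matrix, are among the signals that guide limb and muscle formation.

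A total of 20706 probe sets were tested with no filter on level, and 12300 of them carried 1 gene symbol. The group means of all 48 embryos were estimated together in limma. Probe sets past an adjusted p (Benjamini-Hochberg) of 0.05 are those called here. The array medians of the 16 embryos ran from 7.94 to 8.28. The background level of 9.71, below which 95% of the 23 control probe sets for background lie, is strict, since the median of each of the 16 arrays lies below it. The muscle markers *ACTA1*, skeletal actin, at 13.03 to 13.71 in H10 and 13.25 to 13.60 in C10, and *MYOD1*, the myogenic determination factor, at 10.83 to 11.75 and 10.51 to 11.57, stood above that level. Markers of other tissues were also measured and are given below. The animal numbers form a low and a high series. All H10 embryos have low numbers (4 to 16), while 4 C10 embryos have low numbers (17 to 21) and 4 have high numbers (63 to 70). The methods name 2 batches for each group, and whether the number series correspond to them is unknown, so results are also given for each series of controls. Signal of 18 W-linked probe sets separated 4 embryos with high from 4 with low values in H10 and likewise in C10. Female birds carry the W chromosome.

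Warm incubation was followed by small changes. Of all probe sets, 14 rose (0.0676%) and 13 fell (0.0628%), with absolute log2 fold changes from 0.19 to 0.64. Of these, 5 genes with a symbol rose and 11 fell, while 11 probe sets had no symbol and 1 of the rises repeated the values of another. The risen genes were *UQCR11*, *COX7A2*, *TOMM7*, *DHRS4* and *BATF3*. The fallen genes were *PRCC*, *SRRM1*, *YTHDF1*, *GLI3*, *B3GALT6*, *MEGF9*, *SLITRK1*, *ZNF609*, *RNF19A*, *XPNPEP3* and *FIGN*. In 8 of the 27 the values of H10 and C10 did not overlap, against 18 of all probe sets (0.0869%). The groups of the other 19 overlapped by at least 1 embryo. No gene with a symbol among them had another probe set on the array.

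Among the genes that rose, 3 encode small mitochondrial membrane proteins. *UQCR11* (probe set 15483307), a subunit of respiratory complex III, ran from 9.94 to 10.17 (median 10.03) in H10 and from 9.60 to 9.89 (median 9.73) in C10. The lowest H10 embryo lay above the highest C10 embryo. The log2 fold change was 0.32 (standard error 0.055, adjusted p = 0.00638 in limma), which is a 1.25-fold higher signal. *TOMM7* (15457790), which stabilises the channel for protein import through the outer mitochondrial membrane, ran from 10.46 to 10.69 (median 10.58) in H10 and from 10.27 to 10.45 (median 10.38) in C10. These ranges did not overlap either, although the lowest H10 embryo was only just above the highest C10 embryo. The log2 fold change was 0.21 (standard error 0.043, adjusted p = 0.0184). *COX7A2* (15491296), a subunit of respiratory complex IV, ran from 9.86 to 10.35 (median 10.22) in H10 and from 9.62 to 9.97 (median 9.89) in C10. Of the 8 H10 embryos, 6 lay above all C10 embryos and 2 lay within their range. The log2 fold change was 0.31 (standard error 0.069, adjusted p = 0.0432).

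The other 2 rises were in genes of other functions, both below the background level in both groups. *DHRS4* (15554852), a carbonyl reductase that acts on retinal and related compounds in mammals, ran from 8.78 to 8.99 (median 8.86) in H10 and from 8.44 to 8.70 (median 8.65) in C10. The groups did not overlap, and C10 replicate 19 was the lowest embryo of all. The log2 fold change was 0.26 (standard error 0.052, adjusted p = 0.0196). *BATF3* (15487218), a basic leucine zipper transcription factor known from dendritic cells in mammals, ran from 7.17 to 8.16 (median 7.49) in H10 and from 6.48 to 7.34 (median 6.88) in C10. Its H10 values were widely spread, with 3 embryos near 8 and 2 inside the range of C10. The log2 fold change was 0.64 (standard error 0.14, adjusted p = 0.0453), or 1.56-fold.

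**Figure D1:**
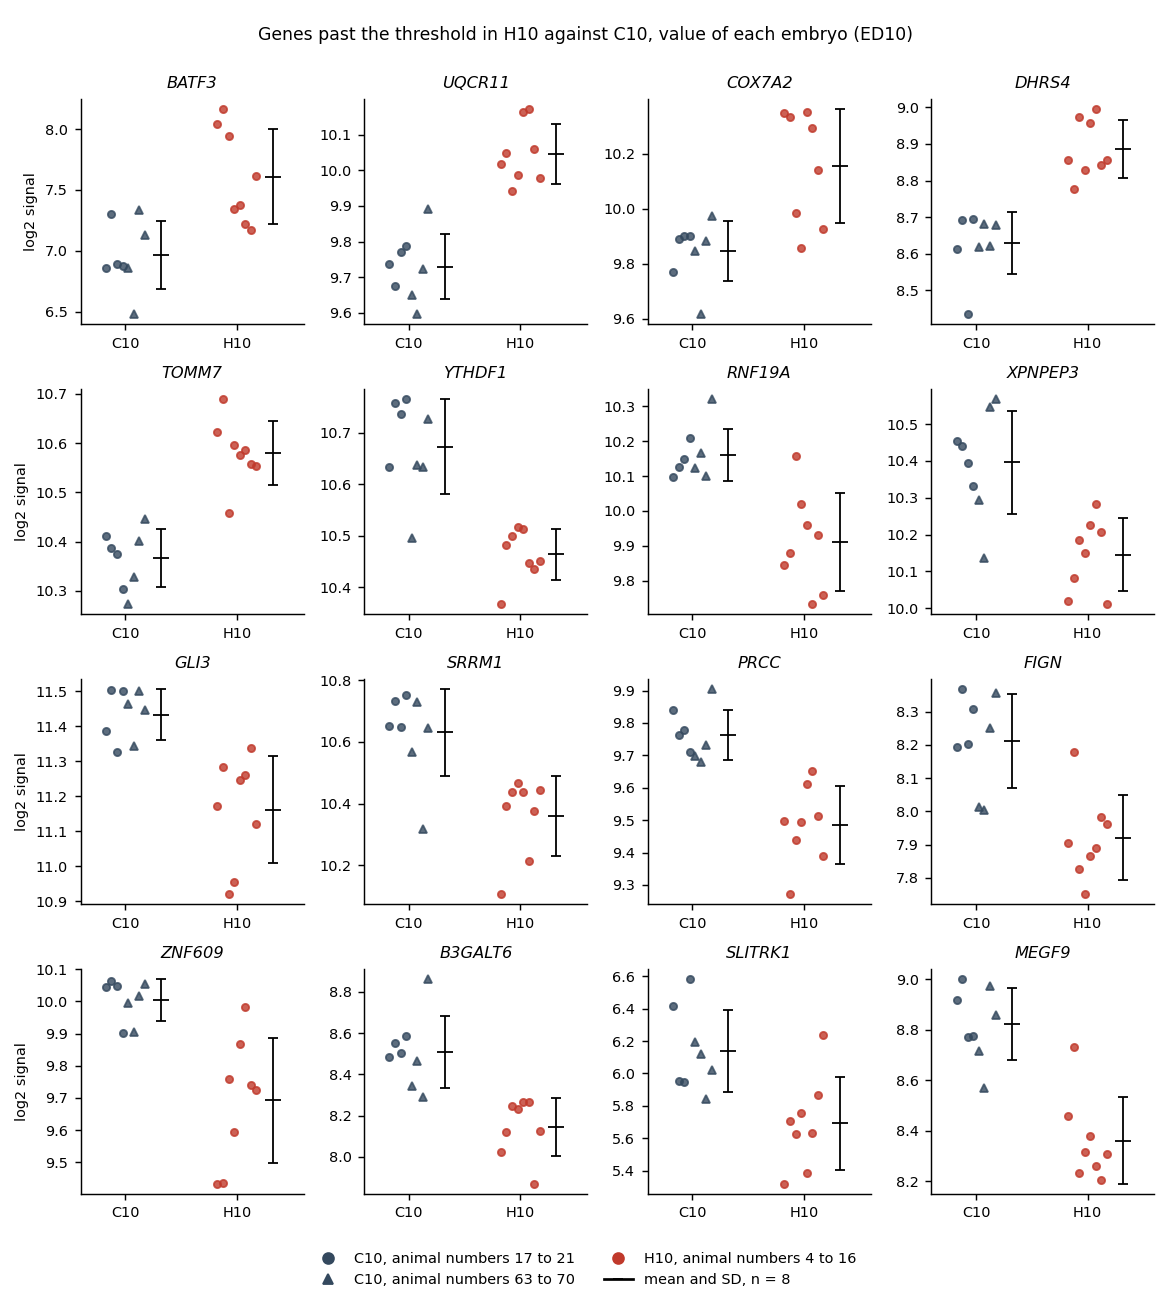
Log2 signal (y axes, a scale per gene) of each C10 and H10 embryo for the 16 genes with a symbol that passed the threshold, ordered from the largest rise to the largest fall. Circles are animals of the low number series and triangles those of the high series, and bars show the mean and SD of 8 embryos. The groups are separate for *UQCR11*, *TOMM7*, *DHRS4*, *PRCC* and *B3GALT6*, and in every panel the means of the low-series and of the high-series C10 embryos lie on the same side of the H10 mean.

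Of the genes that fell, 3 act on mRNA. *PRCC* (15477356), a proline-rich nuclear protein linked to splicing, ran from 9.27 to 9.65 (median 9.50) in H10 and from 9.68 to 9.90 (median 9.75) in C10, without overlap. Its log2 fold change was -0.28 (standard error 0.052, adjusted p = 0.00866). *YTHDF1* (15467244), a cytoplasmic reader of methylated adenosine (m6A) in mRNA, ran from 10.37 to 10.52 (median 10.47) in H10 and from 10.49 to 10.77 (median 10.68) in C10. A single C10 embryo reached into the range of H10, and the other 7 lay above it. Its log2 fold change was -0.21 (standard error 0.041, adjusted p = 0.0142). *SRRM1* (15473972), a splicing coactivator rich in serine and arginine, ran from 10.11 to 10.47 (median 10.41) in H10 and from 10.32 to 10.75 (median 10.65) in C10. Here C10 replicate 65 lay among the H10 embryos, and the next C10 embryo was above all of H10. Its log2 fold change was -0.27 (standard error 0.058, adjusted p = 0.0253).

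A further 4 fallen genes are a transcription factor, a glycosyltransferase and a pair of membrane proteins. *GLI3* (15459262), the GLI family member that in vertebrate limbs serves mainly as the repressor of hedgehog targets, ran from 10.92 to 11.34 (median 11.21) in H10 and from 11.33 to 11.50 (median 11.45) in C10. Of H10, 7 embryos lay below every C10 embryo, and 2 stood clearly lowest. The log2 fold change was -0.27 (standard error 0.061, adjusted p = 0.0438). *B3GALT6* (15469948), which adds a galactose to the linker that joins glycosaminoglycan chains to proteoglycans, ran from 7.87 to 8.27 (median 8.18) in H10 and from 8.29 to 8.86 (median 8.49) in C10. The groups did not overlap, and the log2 fold change was -0.37 (standard error 0.075, adjusted p = 0.0209). *MEGF9* (15439167), a membrane protein with EGF-like repeats, ran from 8.21 to 8.73 (median 8.31) in H10 and from 8.57 to 9.0 (median 8.82) in C10. It had the largest fall of the named genes, at -0.46 (standard error 0.091, adjusted p = 0.0142). *SLITRK1* (15394538), a membrane protein of neurons, lay far lower, from 5.32 to 6.24 (median 5.67) in H10 and from 5.84 to 6.58 (median 6.07) in C10, and differed by -0.44 (standard error 0.099, adjusted p = 0.0432). In neither group did *B3GALT6*, *MEGF9* or *SLITRK1* reach the background level. The *SLITRK1* values lay near 5.61, the median of the control probe sets for background, so its fall is to be read with caution.

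The remaining 4 fallen genes have unrelated roles. *ZNF609*, a zinc finger protein, ran from 9.43 to 9.98 (median 9.73) in H10 and from 9.90 to 10.06 (median 10.03) in C10, and its log2 fold change was -0.31 (adjusted p = 0.0186). *RNF19A*, a ubiquitin ligase, ran from 9.73 to 10.16 (median 9.91) in H10 and from 10.10 to 10.32 (median 10.14) in C10, a difference of -0.25 (adjusted p = 0.0186). In both genes 7 of 8 H10 embryos lay below all of C10. *XPNPEP3*, an aminopeptidase of mitochondria, ran from 10.01 to 10.28 (median 10.17) in H10 and from 10.14 to 10.57 (median 10.42) in C10, a difference of -0.25 (adjusted p = 0.0253). *FIGN*, the microtubule-severing protein fidgetin, ran from 7.75 to 8.18 (median 7.90) in H10 and from 8.01 to 8.37 (median 8.23) in C10, a difference of -0.29 (adjusted p = 0.0406). *XPNPEP3* had the most overlap of the 4, with 3 of 8 H10 embryos below all of C10, and *FIGN* lay below the background level, as did *PRCC* and *ZNF609* in H10 but not in C10.

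The smallest p of all belonged to a probe set without a symbol. Probe set 15408767 ran from 8.73 to 9.10 (median 8.99) in H10 and from 9.26 to 9.55 (median 9.32) in C10, without overlap, and differed by -0.43 (standard error 0.065, adjusted p = 0.000845). Probe set 15481551 also fell, by 0.23 (adjusted p = 0.0276). Of the rises without a symbol, 15546957 had the smallest p, from 9.99 to 10.63 (median 10.38) in H10 and from 9.54 to 10.22 (median 9.70) in C10, a difference of 0.55 (standard error 0.098, adjusted p = 0.0071). It was followed by 15566022 at 0.31 (standard error 0.056, adjusted p = 0.0071), which reached 12.09 in H10 and 11.72 in C10.

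The genes next in line by p did not pass the threshold, and their values are given as such. On the higher side stood *SNRNP27*, a protein of the spliceosome, at 0.38 (adjusted p = 0.0638), *AGTR1*, the angiotensin II receptor, at 0.49 (adjusted p = 0.068), *GPX4*, which reduces lipid peroxides, at 0.26 (adjusted p = 0.0847), *TOMM6*, a further small subunit of the outer membrane translocase, at 0.38 (adjusted p = 0.0854), and *FTH1*, the ferritin heavy chain, at 0.15 (adjusted p = 0.0937). *POU1F1*, *RPL13*, *GEMIN4*, *RPL27A* and *RASSF3* followed, at 0.21 to 0.32. With means of 5.75 in H10 and 5.44 in C10, *POU1F1* lay near 5.61, the median of the control probe sets for background. On the lower side stood *ROR1*, a receptor for WNT5A, at -0.28 (adjusted p = 0.0519). It ran from 10.80 to 11.17 in H10 and from 11.17 to 11.42 in C10. The groups did not overlap, but only just, with the nearest embryos at 11.170 and 11.173. *LRP8*, a reelin receptor, was at -0.33 (adjusted p = 0.0549), *AFAP1L2* at -0.36 (adjusted p = 0.057) and *AP3B2*, an adaptor subunit of vesicle sorting, at -0.30 (adjusted p = 0.0572). *NDFIP2*, an adaptor of NEDD4 ubiquitin ligases, was at -0.20, *MIB1*, the ubiquitin ligase of Notch ligands, at -0.25 and *IGF2BP1*, an RNA-binding protein of embryonic cells, at -0.27. *CLSTN3*, *ANKRD13A* and *DHODH*, the mitochondrial enzyme of pyrimidine synthesis, lay between -0.25 and -0.24. Below the background level in both groups were *SNRNP27*, *AGTR1*, *TOMM6*, *POU1F1*, *GEMIN4*, *LRP8*, *AP3B2*, *CLSTN3* and *DHODH*.

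The count of calls depended on which arrays were in the fit. With only H10 and C10 in the fit, 1 probe set was called and 0 of the 16 named genes, and with only the 24 arrays of ED10 6 were, among them 2 of the 16. Without H10 replicate 4 the count was 15, of which 14 were among the 27. When each of the 16 arrays was left out in turn, *COX7A2* and *FIGN* passed in 4 of the 16 fits, *GLI3*, *BATF3* and *SLITRK1* in 6, *SRRM1* and *XPNPEP3* in 9, and the other named genes in 12 to 16. The direction was steadier than the call. Against the 4 C10 embryos of the low series alone, the 5 risen genes were at 0.21 to 0.63 and the 11 fallen genes at -0.54 to -0.23, and against those of the high series at 0.22 to 0.66 and -0.42 to -0.16. With 4 controls, 11 probe sets were called in the first case, among them 7 of the 27 and 2 of the 16 named genes. In the second case 3 were called, with 0 of the 27 and 0 of the 16 among them. Within the embryos with high W-linked signal the risen genes were at 0.17 to 0.69 and the fallen genes at -0.47 to -0.20. Within those with low W-linked signal they were at 0.22 to 0.60 and -0.53 to -0.18. These splits reuse the embryos that gave the calls.

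Gene lists were read by how many members lay above 0 and by their median, beside the same over all 11528 genes with a symbol, each represented by its brightest probe set. Of all genes 4265 lay above 0 (37.0%), with a median of -0.036. After each array was centred on its median, 5726 did, with a median of -0.001, so list values are best read relative to that of all genes. Against the low-series controls the median of all genes was -0.072 and against the high-series controls -0.007, beside which the list medians for each series below are to be set. At an unadjusted p up to 0.05, 287 genes were higher (2.49%) and 885 lower (7.68%). Genes of the respiratory chain and ATP synthase lay mostly above 0, with 40 of 50 members, a median of 0.10 and 2 members that rose, *UQCR11* and *COX7A2*. *ATP5G1*, a subunit of the ATP synthase ring, was at 0.22 (adjusted p = 0.259) and *UQCRC1*, a core subunit of complex III, at 0.15 (adjusted p = 0.262). The per-embryo mean of the list ran from 10.41 to 10.54 in H10 and from 10.22 to 10.48 in C10, where replicates 64 and 65 were lowest. Against the C10 embryos of the low series the median was 0.046, with 34 of 50 above 0. Of 22 genes of mitochondrial protein import, *TOMM7* alone rose, 12 lay above 0 and the median was 0.009. Of 58 mitochondrial ribosomal proteins 0 were called (2 higher and 0 lower at an unadjusted p up to 0.05), 36 lay above 0 and the median was 0.044, and -0.008 against the low series, where all genes were at -0.072.

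Cytosolic ribosomal proteins, which make up the ribosome outside mitochondria, lay above 0 in 43 of 49 cases with a median of 0.067, and 0 were called. At an unadjusted p up to 0.05, 11 were higher and 1 was lower. *RPL13* was at 0.21 (adjusted p = 0.0983), *RPL27A* at 0.22 (adjusted p = 0.112) and *RPL12* at 0.19 (adjusted p = 0.229), while *RPL23* was at -0.21 (adjusted p = 0.26). The median was 0.062 against the low series and 0.092 against the high series. Sarcomere genes, the contractile proteins of muscle, had 33 of 39 members above 0 and a median of 0.13, with 0 called in limma (5 higher and 2 lower at an unadjusted p up to 0.05). The median was 0.00 against the low series (all genes -0.072) and 0.25 against the high series (all genes -0.007), and it was 0.072 without C10 replicate 65. Myogenic regulators and fusion genes lay at a median of 0.061 with 18 of 26 above 0 and 0 called (3 higher and 0 lower at that p), and at -0.029 against the low series. *MYF6*, a late myogenic factor, was at 0.28 (adjusted p = 0.53) and *SMYD1*, a muscle methyltransferase, at 0.20 (adjusted p = 0.454).

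Hedgehog genes lay mostly below 0, with 19 of 25 members, a median of -0.089 and *GLI3* as the 1 that fell. At an unadjusted p up to 0.05, 5 were lower and 0 higher. They were *GLI3*, the coreceptor *BOC* at -0.31 (adjusted p = 0.164), the activators *GLI2* at -0.17 (adjusted p = 0.229) and *GLI1* at -0.32 (adjusted p = 0.384), and the receptor *PTCH1* at -0.45, which was chosen after its values were seen. *GLI1* and *PTCH1* are standard targets of the pathway. The hedgehog median was -0.111 against the low series (all genes -0.072) and -0.067 against the high series (all genes -0.007). After median centring it was -0.054 (all genes -0.001). Genes of glycosaminoglycan and proteoglycan synthesis lay below 0 in 40 of 47 cases, with a median of -0.098, and *B3GALT6* was the 1 that fell. Their median was -0.139 against the low series, -0.070 against the high series and -0.063 after median centring. *EXT2*, which elongates heparan sulphate, was at -0.15 (adjusted p = 0.209) and the syndecan *SDC3* at -0.35 (adjusted p = 0.257), while the syndecan *SDC4* was at 0.26 (adjusted p = 0.442).

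Values within the classes of W-linked signal are given for both lists and for all genes. The hedgehog mean was 8.85 to 8.94 in the 4 H10 embryos with high signal and 9.08 to 9.20 in the 4 with low signal, without overlap. In C10 it was 8.94 to 9.38 and 9.08 to 9.26. Of the 26 lists, some others were also without overlap between these H10 classes. They were glycosaminoglycan genes (9.09 to 9.21 and 9.22 to 9.39), mitochondrial ribosomal proteins (9.10 to 9.19 and 9.21 to 9.36) and fibroblast markers (11.18 to 11.39 and 11.40 to 11.48). The share of all probe sets that separated in this way was not counted, so the lists cannot be set against it. Array medians averaged 8.037 with high and 8.11 with low signal in H10, and 8.145 and 8.073 in C10. The hedgehog list median of H10 minus C10 was -0.19 within embryos of high signal and 0.040 within those of low signal. For glycosaminoglycan genes it was -0.19 and 0.001. The median of all genes ran the same way, at -0.095 and 0.023, as did those of cell cycle genes at -0.128 and 0.052, splicing genes at -0.117 and 0.022, IGF signalling genes at -0.162 and 0.008 and cartilage markers at -0.448 and 0.03. The other way ran sarcomere genes at 0.145 and 0.108, myogenic regulators at 0.111 and 0.001 and erythroid markers at 0.012 and -0.306. Cytosolic ribosomal proteins were alike in both classes, at 0.074 and 0.076. The difference between the classes was not tested for the lists. For single probe sets it was, and 0 of 20706 passed in limma, with 2076 at an unadjusted p up to 0.05.

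Lists of mRNA processing and of proliferation were read in the same way. Of 59 pre-mRNA splicing genes 44 lay below 0, with a median of -0.058, and *PRCC* and *SRRM1* fell. The splicing median was -0.085 against the low series, close to that of all genes at -0.072. It was -0.030 against the high series (all genes -0.007) and -0.023 after median centring (all genes -0.001). *SRSF1*, a founding member of the SR splicing factors, was at -0.14 (adjusted p = 0.068) and *SNRNP27* was at 0.38 (adjusted p = 0.0638). Of 16 m6A genes 15 lay below 0, with a median of -0.083, and *YTHDF1* was the 1 that fell. With median centring 4 of the 16 lay above 0 (median -0.048), and against the high-series controls 5 did (median -0.035). *IGF2BP1* was at -0.27 (adjusted p = 0.0607) and the reader *YTHDF2* at -0.16 (adjusted p = 0.139). Of 62 replication and cell cycle genes 41 lay below 0, with a median of -0.038, close to that of all genes, and 0 were called (7 lower and 0 higher at an unadjusted p up to 0.05). The pocket protein *RBL1* at -0.20 (adjusted p = 0.13), *UHRF1*, which maintains DNA methylation, at -0.17 (adjusted p = 0.132), the ligase *LIG1* at -0.22 (adjusted p = 0.209) and the helicase subunit *MCM2* at -0.22 (adjusted p = 0.32) had the smallest p. After each array was centred on its median, the cell cycle median was -0.002, and 31 of 62 lay above 0.

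The heat shock and cold-inducible genes showed no called member. Of 49 heat shock proteins and chaperones 25 lay above 0, with a median of 0.001, and 3 were higher and 5 lower at an unadjusted p up to 0.05. The collagen chaperone *SERPINH1* was at 0.14 (adjusted p = 0.276), the cytosolic chaperone *HSP90AB1* at -0.16 (adjusted p = 0.354), and the small heat shock proteins *CRYAB* at 0.41 (adjusted p = 0.367) and *HSPB1* at 0.27 (adjusted p = 0.449). *RBM3*, an RNA-binding protein that cold induces in mammals, was at 0.086 (standard error 0.048, adjusted p = 0.597). Its H10 embryos ran from 12.43 to 12.68 and its C10 embryos from 12.31 to 12.66. Of 23 AP-1 and BATF family genes *BATF3* alone rose and the median was 0.002. Among glycolysis genes 20 of 31 lay above 0 (median 0.018) and among IGF signalling genes 5 of 24 (median -0.048), with 0 called in either. At an unadjusted p up to 0.05, 1 glycolysis gene was higher and 2 lower, and 1 IGF gene was higher and 3 lower. *EIF4EBP1*, a translation repressor downstream of IGF signals, was at 0.16 (adjusted p = 0.229) and *PIK3R2*, a regulatory subunit of PI3 kinase, at -0.18 (adjusted p = 0.32). Of 34 genes of thyroid hormone action and thermogenesis 17 lay above 0 and 0 were called, with 2 higher and 4 lower at that unadjusted p. *MED1*, a Mediator subunit that binds thyroid hormone receptors, was at -0.22 (adjusted p = 0.0832). *RXRA* was at -0.23 (adjusted p = 0.321), *NCOA1* at -0.21 (adjusted p = 0.416) and *SLN* at 0.29 (adjusted p = 0.325).

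**Figure D2:**
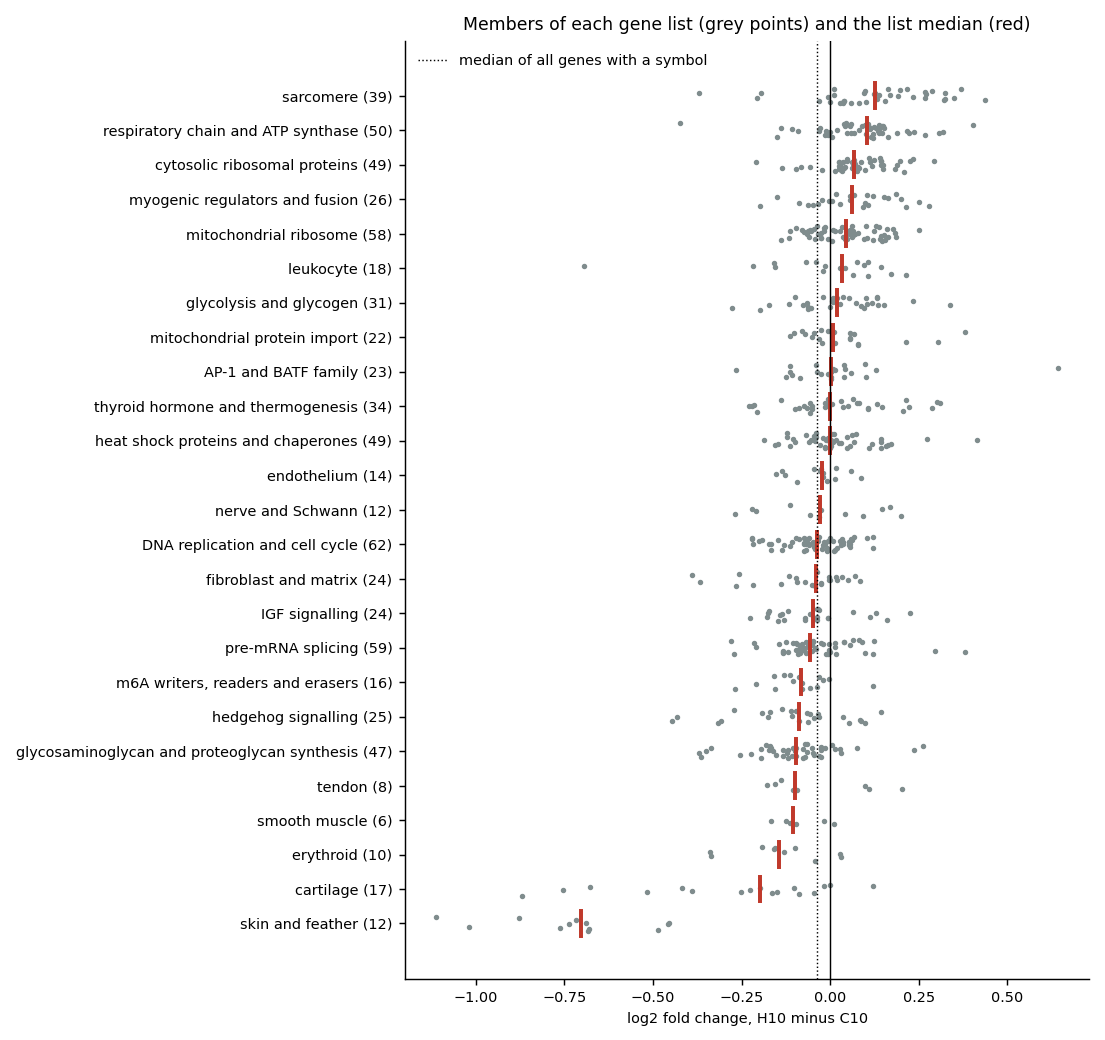
Log2 fold change of H10 against C10 (x axis) for each measured member (grey points) of 25 gene lists with more than 1 member (rows, number of members in brackets), with the list median in red and the median of all genes with a symbol as a dotted line. The medians of sarcomere, respiratory chain and ribosomal protein genes lie to the right of the dotted line and those of hedgehog, glycosaminoglycan, cartilage and skin genes to its left, with single members on both sides in each of these lists but that of skin.

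Markers of other tissues were measured because a leg muscle sample of this size can hold skin and cartilage. All 12 skin and feather markers lay below 0, with a median of -0.70 that became -0.31 without H10 replicate 9. Their per-embryo mean ran from 5.48 to 9.74 in H10 and from 8.45 to 10.07 in C10. H10 replicate 9 was far below the rest, and the other 7 H10 embryos ran from 7.87 upwards. In that embryo the epithelial adhesion molecule *EPCAM* was at its lowest value of 3.91, against a median of 9.45 in H10 and 10.06 in C10, and its difference of -1.11 became -0.39 without that embryo. With the skin mean as a covariate 41 probe sets were called, 25 of them among the 27. Of 17 cartilage markers 15 lay below 0, with a median of -0.20. *SOX9*, the cartilage master regulator, was at -0.39 (adjusted p = 0.403) and *MATN1*, a cartilage matrix protein, at -0.75 (adjusted p = 0.674). The cartilage mean ran from 7.53 to 9.33 in H10 and from 7.87 to 9.48 in C10. Medians were -0.099 for 8 tendon, -0.11 for 6 smooth muscle, -0.14 for 10 erythroid, -0.040 for 24 fibroblast and 0.034 for 18 leukocyte markers. They were -0.023 for 14 endothelial and -0.029 for 12 nerve markers, which became 0.014 and 0.002 after quantile normalization. None of these markers was called in limma, and at an unadjusted p up to 0.05 0 skin, 1 cartilage, 1 fibroblast, 1 leukocyte and 1 nerve marker were lower and 0 higher. Lower levels in a whole sample can come from fewer cells of a type or from less RNA per cell, which cannot be told apart here. The part of these tissues in the hedgehog, glycosaminoglycan and splicing values was not tested.

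**Figure D3:**
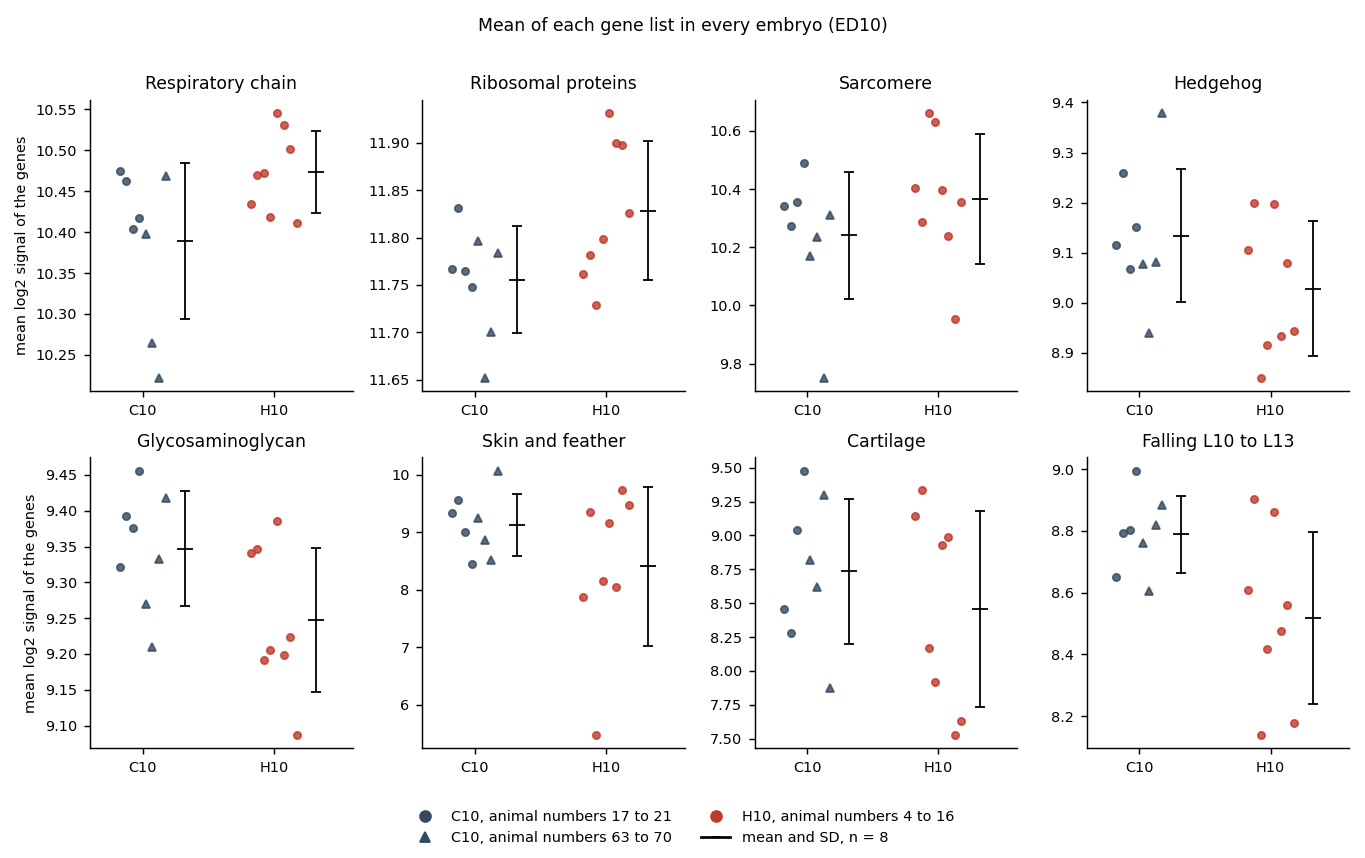
Mean log2 signal (y axes) of 7 gene lists and of the 200 probe sets that fell most from L10 to L13, in each C10 and H10 embryo, with circles for the low and triangles for the high animal number series and bars for the mean and SD of 8 embryos. H10 and C10 overlap in every panel, H10 replicate 9 stands at 5.48 in the skin panel and C10 replicate 65 at 9.75 in the sarcomere panel.

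The cool group of the same day was used to ask whether the named genes also differed on the other side of the control temperature. L10 minus C10 shares the C10 embryos with H10 minus C10, so only the values are set side by side. The 5 genes that rose in H10 were at -0.051 to 0.037 in L10 minus C10, and the 11 that fell were at -0.039 to 0.096. Their adjusted p values were 0.951 to 0.999, and 0 of all probe sets were called in this contrast by limma, with 891 at an unadjusted p up to 0.05. *GLI3* was at 11.4 ± 0.072 (SD, n = 8) in C10 and 11.5 ± 0.14 (SD, n = 8) in L10, and *UQCR11* at 9.73 ± 0.091 and 9.71 ± 0.12. In each of the 16 genes the L10 mean lay within 0.096 of the C10 mean. L10 embryos all have high animal numbers and H10 embryos low ones, while C10 holds both. The warm and the cool contrast therefore differ in number series as well as in temperature.

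**Figure D4:**
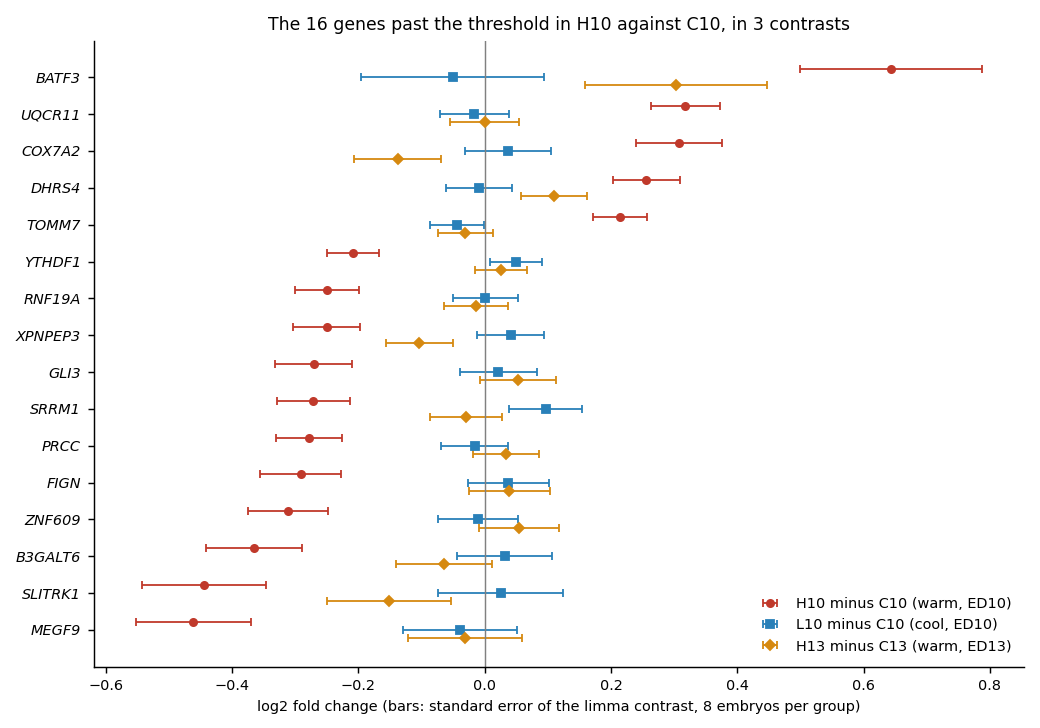
Log2 fold change (x axis) with its standard error for the 16 genes called in H10 against C10, in H10 minus C10 (red circles), L10 minus C10 (blue squares) and H13 minus C13 (orange diamonds), with 8 embryos per group. The red points lie away from 0 because these genes were chosen by that contrast, while the blue points lie between -0.051 and 0.096.

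Between the warm and the cool embryos directly, 132 probe sets were higher in H10 (0.637%) and 662 lower (3.20%). All L10 embryos have high animal numbers and all H10 embryos low numbers, so treatment and number series cannot be told apart in this contrast. The balance depended on scaling, with 311 higher and 471 lower after quantile normalization and 337 and 467 after median centring. The genes with the smallest p, chosen after their values were seen, were *LGI2*, a secreted leucine-rich protein, at -0.81 (standard error 0.11, adjusted p = 2.88e-05), and *HP1BP3*, a histone H1-like chromatin protein, at -0.30 (standard error 0.042, adjusted p = 2.88e-05). *CNTNAP2*, a neurexin-like membrane protein, was at -0.81 and -0.95 with its 2 probe sets. *LGI2* stood at 8.99 in H10, 9.39 in C10 and 9.80 in L10, and *VSIG10L* in the other order, at 9.92, 9.62 and 9.23, so that C10 lay between the treated groups. In both genes neither treated group differed from C10 past the threshold.

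None of the 16 genes passed the threshold after later warming, where only 2 of all 20706 probe sets were called in limma. In H13 minus C13, which shares no array with H10 minus C10, the 5 risen genes were at -0.14 to 0.30 and the 11 fallen genes at -0.15 to 0.054, with adjusted p values from 0.458 upwards. *BATF3* was at 0.30 and *COX7A2* at -0.14. The difference between the ED10 and the ED13 effect was tested as an interaction. For the 16 genes it was 0.15 to 0.45 in the risen and -0.43 to -0.15 in the fallen genes, and the smallest adjusted p was 0.0781, for *COX7A2*. The interaction contains H10 minus C10, the contrast that chose these genes, so its shared sign in them is no separate evidence. Over all probe sets 2 passed (0.00966%). *NDFIP2* differed by -0.35 (standard error 0.066, adjusted p = 0.0345, but 0.0682 after median centring). It was at -0.20 in H10 minus C10 and at 0.15 in H13 minus C13, neither past the threshold. Probe set 15430274, which has no symbol, differed by 0.41 (standard error 0.066, adjusted p = 0.00293). It rose by 0.25 in H10 (adjusted p = 0.0071), where its range of 11.60 to 11.83 lay above that of C10 at 11.39 to 11.55, and was at -0.16 in H13 minus C13. Of the 27 called probe sets 13 had the same sign in H13 minus C13, against 56% of all probe sets. It was 5 of the 14 that rose (35.7%) and 8 of the 13 that fell (61.5%). For all probe sets above and below 0 in H10 minus C10 it was 61.5% and 52.2%.

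The change between ED10 and ED13 was taken from L13 minus L10, which shares no array with H10 or C10, although both of its groups had been cooled, in different intervals. In that contrast 2020 probe sets rose (9.76%) and 3150 fell (15.2%). Of the 11 genes that fell in H10, 8 also fell from L10 to L13 (72.7%), against 20.6% of all probe sets below 0 in H10 minus C10. Of the 5 that rose, *UQCR11*, *DHRS4* and *BATF3* also rose from L10 to L13, against 14.5% of all probe sets above 0 in H10 minus C10. The shares of all probe sets here include those without a symbol. Among all called probe sets, with or without a symbol, it was 9 of the 13 that fell (69.2%) and 7 of the 14 that rose (50%). In the opposite direction 0 of the 16 changed past the threshold. By sign alone, 9 of the 11 and 4 of the 5 went the same way (81.8% and 80%). For all probe sets below and above 0 it was 63.2% and 57.1%. Both contrasts share 1 estimate of spread per probe set, so a probe set called in 1 is more easily called in the other. *GLI3* fell by 0.85 (adjusted p = 2.16e-14) and *FIGN* by 0.39 from L10 to L13. *BATF3* rose by 0.65 (adjusted p = 0.000516), close to its difference between H10 and C10. *RNF19A*, *XPNPEP3*, *SLITRK1*, *TOMM7* and *COX7A2* did not pass the threshold between the days. Among the 10 genes next in line on the lower side, 8 fell from L10 to L13, among them *ROR1* and *LRP8*, each by 0.77, and among the 10 on the higher side 3 rose.

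Wider sets were taken from the same contrast. Of the 200 probe sets with a symbol that fell most from L10 to L13, 182 lay below 0 in H10 minus C10, with a median of -0.26 and 44 lower at an unadjusted p up to 0.05, against 7.50% of all probe sets with a symbol, though 0 were called. Their mean ran from 8.14 to 8.90 (median 8.52) in H10 and from 8.60 to 8.99 (median 8.80) in C10, so the groups overlapped. The H10 embryos with high W-linked signal were at 8.14 to 8.47 and those with low signal at 8.56 to 8.90, against 8.61 to 8.99 and 8.65 to 8.82 in C10. Of the 200 that rose most, 117 lay above 0, with a median of 0.050 that became -0.0076 without C10 replicate 65 and -0.044 against the low-series controls. For H10 embryos, the mean of the risen minus that of the fallen set averaged -0.73, with an SD of 0.31. The C10 value was -1.04 (SD 0.31) and that of L10 was -1.38 (SD 0.16), with n = 8 per group. L13 lay at 1.72 (SD 0.42), but L10 and L13 are the groups that chose the sets. At ED13 the order of warm and control embryos was reversed, with H13 at 1.87 (SD 0.48) below C13 at 2.07 (SD 0.26). The ranges of warm and control embryos overlapped on both days. Cartilage markers are part of this axis, with a median of -0.70 from L10 to L13. Across all probe sets H10 minus C10 correlated with L13 minus L10 at r = 0.17 (r = 0.11 with the low-series controls), a description over probe sets that share the same arrays and are not independent.

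The size of a gene was also related to its difference. This pattern was noticed in the data. Genomic lengths came from the GRCg7b gene table for 11030 of the 11528 genes. The median log2 fold change was 0.0040, -0.014, -0.043, -0.054 and -0.071 from the shortest to the longest of 5 bins of 2206 genes each (0.039, 0.021, -0.0077, -0.019 and -0.036 after median centring, where the second bin lies above 0), and the share above 0 fell from 51.9% to 24.8%. In the shortest bin (up to 5208 bases) 115 genes were higher and 87 lower at an unadjusted p up to 0.05, and in the longest (from 51720 bases) 19 were higher and 253 lower. Short genes among those called included *UQCR11* at 1917 bases, *COX7A2* at 3331 bases and *DHRS4* at 3431 bases, which rose, and *SLITRK1* at 4705 bases, which fell, and the longest called gene was *GLI3* at 211790 bases. The medians of the bins without ribosomal and mitochondrial list genes ran from 0.0010 to -0.071. Spearman's rho over the genes was -0.229 with length and -0.0187 with mean level.

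**Figure D5:**
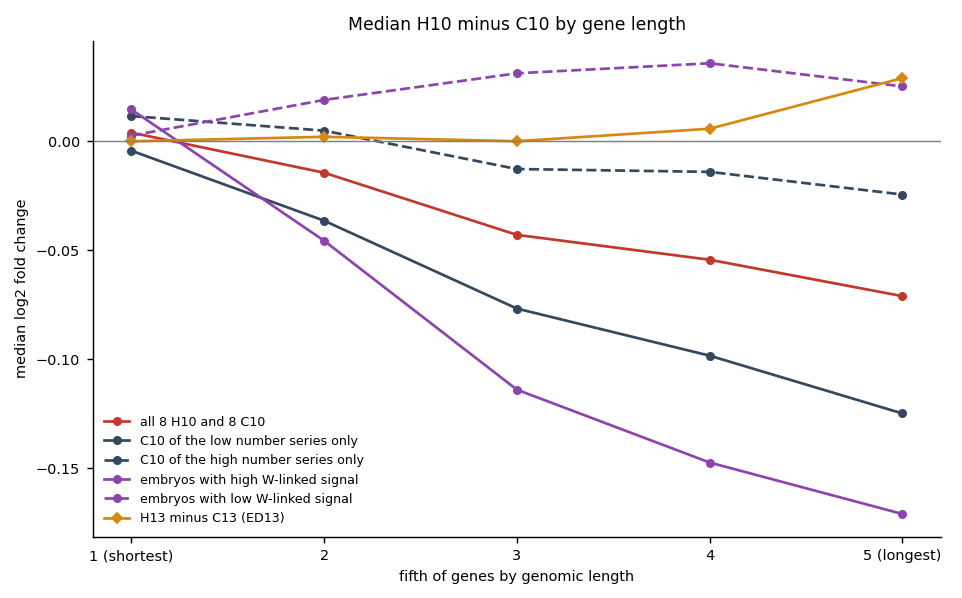
Median log2 fold change (y axis) in each of 5 bins of genes by genomic length (x axis, 2206 genes per bin) for H10 minus C10 in all embryos, with each number series of C10 alone and within each class of W-linked signal, and for H13 minus C13, with dashes for the high number series and for low W-linked signal. The line for all embryos descends from 0.0040 to -0.071, that of high W-linked signal to -0.17, and that of low W-linked signal stays above 0.

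The length gradient was not the same in all parts of the data. The shortest minus the longest bin was 0.075 over all embryos, 0.12 against the low-series controls and 0.036 against the high-series controls. It was 0.19 within embryos of high W-linked signal and -0.023 within those of low W-linked signal. Leaving out single arrays gave 0.039 (without H10 replicate 13) to 0.099, with a descent at every step in all 16 cases. In H13 minus C13 the medians ran from 0.000024 in the shortest to 0.029 in the longest bin. Per embryo, the mean of the shortest minus that of the longest bin was -0.79 ± 0.13 in H10 and -0.87 ± 0.10 in C10 (SD, n = 8 each), and the groups overlapped. With this index as a covariate 352 probe sets were called, 254 higher and 98 lower, and all 27 were among them. Such an index can also move with RNA quality, for which no values were at hand, and its part in the gene lists was not tested.

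Muscle at D35 was compared to ask whether the ED10 differences were still seen after hatch. Between the 8 chickens of the H10 treatment and the 8 controls, which were 2 of the C10 and 6 of the C13 treatment, 0 of all probe sets were called by limma, with 586 at an unadjusted p up to 0.05. Of the 27 probe sets called at ED10, 21 had the same sign at D35, against 54.1% of all probe sets. Among those with a symbol it was 3 of the 5 risen and 7 of the 11 fallen genes (60% and 63.6%). Of all probe sets above and below 0 at ED10, with or without a symbol, it was 45.4% and 60%. Only *TOMM7* of the 27 had an unadjusted p up to 0.05 in limma (log2 fold change 0.17). *UQCR11* was at 0.22 and *ZNF609* at -0.22, while *GLI3* was at 0.0051 and *BATF3* at 0.071. The 16 genes ran from -0.22 to 0.22 at D35. In the order of the sample records all 8 H10 chickens but only 4 of the controls belong to the first run of animal numbers, and with those 4 alone 0 were called as well.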

How the data were processed

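RNA of single embryos was hybridised to 1-colour expression arrays. The deposited values are log2 signals per probe set, and the submitters' processing notes name GCOS 1.1.1. How the authors normalised them is not given in the sources used here, so the values were used as deposited. Control probe sets (98) were left out, leaving 20706. A mean per group was fitted to the 48 embryo arrays, and separately to the D35 arrays, with limma 3.58.1 in R 4.3.3 (lmFit, eBayes, Benjamini-Hochberg adjustment, threshold 0.05), with no filter on level. The interaction and the H10 minus L10 contrast came from the same fit. The procedure was tested on simulated data.

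Probe sets carry the symbols of the array annotation, and 8150 had none and 256 several. A gene with several probe sets was represented by the brightest. Named are all genes past the threshold, the next 10 in each direction by p, up to 4 members of each list by p, and markers of other tissues. These members and lists were chosen with earlier results of these data known. Temperature groups followed the sample titles. By the methods each group was incubated in 2 batches, but the labels used here do not assign embryos to them. Batch was therefore not a term in the fit. The p-values for embryos measure the spread between embryos within groups, pooled over the 48 embryo arrays, and not that between incubations. The number of arrays limits the precision. Alternatives covered normalization, filters, moderation, array weights, the arrays in the fit, covariates and left-out arrays. Those on the high-series controls, the classes of W-linked signal, gene length, and C10 replicate 65 and H10 replicate 9 in the lists were chosen after seeing the data.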

Additional observations from a re-analysis of the deposited data

Results flagged for a closer look

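In 148 groups of 8 embryos (genes and list means), 9 had 1 embryo far from the others, and chance alone gives about 1 in 20. C10 replicate 65 was the stray embryo in 6 of them. It stood at 10.318 for *SRRM1* (next embryo 10.566), at 10.051 for *RASSF3* (10.634) and at 9.8653 for *IGF2BP1* (10.134). Its list means were 9.7513 for sarcomere genes (10.171), 9.7313 for myogenic regulators (10.097) and 7.6292 for nerve markers (7.8932). C10 replicate 19 stood at 8.436 for *DHRS4* (8.6121), C10 replicate 64 at 9.4616 for *CLSTN3* (9.6696), and H10 replicate 9 at 5.4799 for the mean of skin and feather markers (7.8686). The effect of warming differed between ED10 and ED13 in the interaction test by -0.350496 for *NDFIP2* and by 0.409576 for probe set 15430274.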

How the results depend on the processing

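All 27 probe sets called kept their direction in every alternative that measured them. These alternatives reuse the arrays that gave the calls, so the kept direction is no independent support. The count of calls moved. It was 57 after quantile normalization (21 of the 27 and 12 of the 16 named genes among them), 58 after median centring (19 and 9), 80 with dim probe sets left out (4332 tested, 19 of the 27 among them), 41 with trended and robust moderation, 52 without moderation and 117 with array weights. Without moderation or adjustment, 1973 had a p under 0.05. It was 1 with only H10 and C10 in the fit, 6 with only ED10 arrays, 11 with only the low-series C10 embryos, 152 with the number series as a covariate and 41 with the skin mean as a covariate. Among the alternatives chosen after seeing the data it was 3 with only the high-series C10 embryos, 352 with the gene-length index as a covariate, 0 within embryos of high and 8 within those of low W-linked signal. Leaving out single arrays gave 15 (without H10 replicate 4) to 35. The cause of these moves was not tested. *UQCR11*, *PRCC*, *MEGF9* and *YTHDF1* stayed past the threshold in all 16 of those fits, while *COX7A2* and *FIGN* did in 4 and *GLI3*, *BATF3* and *SLITRK1* in 6.

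H10 against L10 gave 794 calls, and 2527 with array weights. The interaction of warming with day gave 2, and 11 after quantile normalization, 6 after centring (without *NDFIP2*), 49 with dim probe sets left out, 4 with trended moderation and 252 with array weights. The difference between H10 and C10 in the mean of risen minus fallen age genes was 0.31 (0.2251 to 0.3519 without single arrays). No paired analysis was possible because the numbers in the titles are animal numbers, and H10 and C10 share none. Signals near background limit what can be read of dim genes.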
